A study of Homo sapiens and Mus musculus with 27 samples.

Results

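MDA-MB-231 cells, a human triple-negative breast cancer line, were compared after bortezomib with TM and after vehicle. The 6 libraries were chosen by their labels in the MDA-MB-231 count table, 3 at 10 nM bortezomib with 10 µM TM and 3 with vehicle, out of 27 libraries in the series. The other libraries come from MDA-MB-231 under bortezomib with AMD3100, from the human line HCC1937, and from mouse 4T1 tumours. TM is used as a name because the labels do not expand it. No MDA-MB-231 group received bortezomib or TM alone, so what each agent contributes cannot be told apart. Neither the length of exposure nor the origin of the cultures called biological replicates was given in the sources used here, so the p-values measure the spread between these libraries only.

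Bortezomib is a reversible inhibitor of the proteasome, binding mainly the catalytic subunit encoded by PSMB5. When proteasomes are blocked, misfolded and short-lived proteins pile up, and cells switch on chaperones, new proteasome subunits and the ATF4 stress program. The account below puts its weight on what fell, and on pathways outside that stress program: growth factor and morphogen signalling, matrix and adhesion, chromatin, metabolism and inflammation.

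Total counts of the 6 libraries ran from 41808815 to 50283398. The vehicle libraries had a count in 25020 to 25423 genes and the treated ones in 22595 to 23222. Mitochondrially encoded genes held 3.94% to 4.06% of counts under vehicle and 2.67% to 3.02% under bortezomib with TM. Markers chosen for the line were read in both groups. VIM stood near 943 CPM (counts scaled to library size by the TMM factors) and CD44 near 267 CPM under vehicle. Under treatment VIM had 32986 to 39499 counts and CD44 9045 to 11191. PGR had 0 counts in all 6 libraries, CDH1 0 to 4 and ESR1 0 to 8. EPCAM had 111 to 143 counts under vehicle and 37 to 71 under treatment, and ERBB2 3046 to 4069 and 1630 to 2054. EGFR, chosen as a high marker, fell under treatment as given below. Lymphocyte markers summed to 0.623 to 1.32 CPM under vehicle and 0.577 to 0.966 CPM under treatment, and myeloid markers to 1.12 to 1.37 and 1.29 to 1.87 CPM. Endothelial markers summed to 1.84 to 2.03 CPM under vehicle and 0.375 to 0.895 CPM under treatment, and fibroblast markers to 16.6 to 20.1 and 16.1 to 18.5 CPM with 4 of 8 at 0; their part in the results was not tested. The first principal component, with 61.2% of the variance over the 9 MDA-MB-231 libraries, separated vehicle from treated libraries. The second followed base composition within groups: the deviation of a gene from its group mean tracked its GC content with a Spearman correlation of 0.72 and 0.45 in bortezomib-TM libraries 1 and 2 but -0.75 in library 3, across 9125 genes that share these libraries. Among vehicle libraries that correlation was -0.55, 0.84 and -0.79. Bortezomib-TM library 3 thus stands apart from its group, and so does vehicle library 2 by the same measure. Counts or medians of gene lists that move by over 1.5 times without bortezomib-TM library 3 are given both ways.

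Of 16498 genes tested, 8527 (51.7%) differed between bortezomib with TM and vehicle at an adjusted p under 0.05, 3981 higher (24.1%) and 4546 lower (27.6%). At a change of at least 2-fold the balance moved further towards falls, with 2744 genes lower (16.6%) and 1906 higher (11.6%), and at 4-fold 824 were lower and 530 higher. At 8-fold 195 were lower and 197 higher, a balance that leaving out a library moved: 345 were lower and 226 higher without bortezomib-TM library 1, 303 and 222 without library 2, and 353 and 239 without library 3. The 3 treated libraries all lay on 1 side of the 3 vehicle libraries for 9633 genes (58.4%). The split depends on the scaling: the TMM factors were 0.874 to 0.935 for the treated libraries and 1.14 to 1.25 for vehicle, and scaling by total counts alone moved the median of all genes by -0.42 on the log2 scale and gave 2195 higher and 7146 lower. The excess of falls turned to an excess of rises with median-of-ratios scaling (4325 higher, 4128 lower), in DESeq2 (4433 and 4282) and with a correction for GC content (5036 and 4769). Changes below are therefore relative to the TMM reference, for which the median gene changed by -0.09. Without bortezomib-TM library 3, 3935 genes were higher and 4806 lower.

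**Figure D1:**
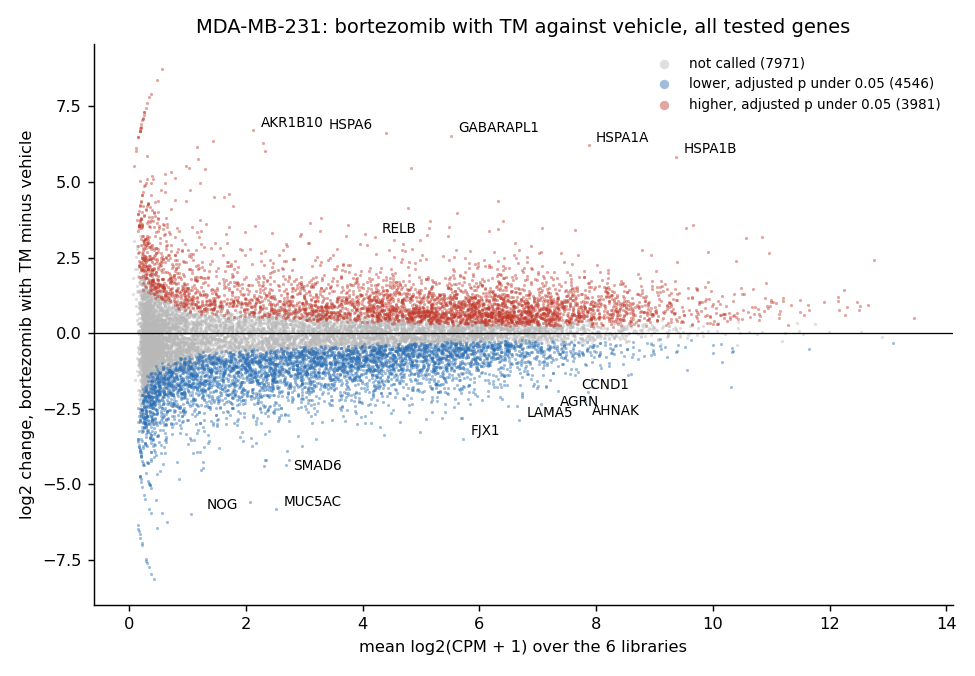
Log2 change against mean level for each of the 16498 genes tested, with genes called higher in red (3981) and lower in blue (4546). The falls form a broad band that reaches -2 to -3 for genes of high level such as LAMA5, AGRN and CCND1, while the points above 5 are led by stress genes.

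Genes at 5 CPM or more in the higher group, with no overlap between the groups, were ranked by their fall; called genes of lower level had larger log2 changes. MUC5AC, NOG, IGFBP1 and SMAD6 came first in that ranking. MUC5AC, a gel-forming secreted mucin (ENSG00000215182, GRCh38 chromosome 11, 1157953 to 1201138), measured 19.1, 32.4 and 17.7 CPM in the vehicle libraries and 0.456, 0.376 and 0.379 CPM under bortezomib with TM, a log2 change of -5.82 (SE 0.36, adjusted p = 1.99e-07). NOG, which encodes the secreted BMP antagonist noggin (chromosome 17, 56593699 to 56595590, a gene of 1 exon), went from 13.4, 12.7 and 12.7 CPM to 0.319, 0.430 and 0.0669 CPM (log2 -5.59, SE 0.40, adjusted p = 6.49e-07). That the groups did not overlap was a condition of the ranking, met by 58.4% of all genes tested. All treated values of MUC5AC and NOG were under 0.5 CPM. IGFBP1, an insulin-like growth factor binding protein, fell from 14.1 ± 1.02 to 0.660 ± 0.334 CPM (SD, n = 3), and APLN, the peptide ligand apelin, from 9.79 ± 2.09 to 0.738 ± 0.272 CPM.

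SMAD6 and ATOH8, both known targets of BMP signalling, were among these 14 largest falls. That every treated value lay below vehicle follows from the rule of the ranking. SMAD6 (ENSG00000137834, chromosome 15, 66702228 to 66782848), an inhibitory SMAD, measured 19.3, 22.5 and 18.6 CPM under vehicle and 0.979, 0.993 and 0.959 CPM under treatment (log2 -4.36, SE 0.20, adjusted p = 2.51e-08). ATOH8, a basic helix-loop-helix transcription factor, measured 17.3, 21.6 and 15.6 against 1.37, 1.29 and 0.982 CPM (log2 -3.90, SE 0.22). The 3 treated libraries stood close together, and the SMAD6 means were 20.6-fold apart. SPRY1, a Sprouty inhibitor of receptor tyrosine kinase signalling, fell from 13.7 ± 0.780 to 0.743 ± 0.316 CPM (log2 -4.21), and FOXQ1, a forkhead transcription factor, from 19.9, 23.5 and 18.1 to 1.30, 1.32 and 0.714 CPM. TRIB2, a Tribbles pseudokinase, fell from 22.7, 26.8 and 25.6 to 2.41, 2.26 and 2.01 CPM, and FJX1, a Golgi and secreted protein counted among YAP targets, from 173 ± 22.4 to 15.2 ± 1.19 CPM. The remaining members of the 14 were ADGRF1, an adhesion G protein-coupled receptor (log2 -4.19), PLCH2, a phospholipase C (log2 -3.80), INSYN2B (log2 -3.73) and PIGM, a mannosyltransferase of GPI anchor synthesis (log2 -3.62).

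Genes that averaged 100 CPM or more over the 6 libraries were ranked in the same way, again only where the groups did not overlap. Their 8 largest falls were in matrix proteins (LAMA5, AGRN), feedback and BMP target genes (SPRY4, ID1), membrane scaffolds (CAV1, AHNAK), cyclin D1 and FAM120A. LAMA5, the laminin alpha 5 chain (ENSG00000130702, chromosome 20, 62307955 to 62367312), measured 249, 338 and 247 CPM under vehicle and 45.3, 37.9 and 30.0 CPM under treatment (log2 -2.88, SE 0.19, adjusted p = 3.86e-07). AGRN, the heparan sulfate proteoglycan agrin, measured 333, 452 and 315 against 74.0, 62.8 and 53.2 CPM (log2 -2.53, SE 0.19). In both, vehicle library 2 was the highest and bortezomib-TM library 3 the lowest. CCND1, which encodes cyclin D1, the partner of CDK4 and CDK6 in entry to the cell cycle, measured 453, 453 and 496 CPM under vehicle and 102, 101 and 112 CPM under treatment (log2 -2.15, SE 0.09, adjusted p = 1.11e-08). SPRY4 (chromosome 5, 142310427 to 142326455) went from 222, 248 and 220.3 CPM to 43.6, 41.6 and 43.2 CPM (log2 -2.43, SE 0.11). ID1, an inhibitor of basic helix-loop-helix factors and a direct BMP target, went from 294, 312 and 296 CPM to 59.1, 70.6 and 47.5 CPM (log2 -2.35, SE 0.13). That no library of CCND1, SPRY4 or ID1 crossed between the groups follows from the rule of the ranking. CAV1, the coat protein of caveolae, had a log2 change of -2.40, AHNAK, a giant membrane-associated scaffold, of -2.24, and FAM120A, an RNA-binding protein, of -2.17.

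**Figure D2:**
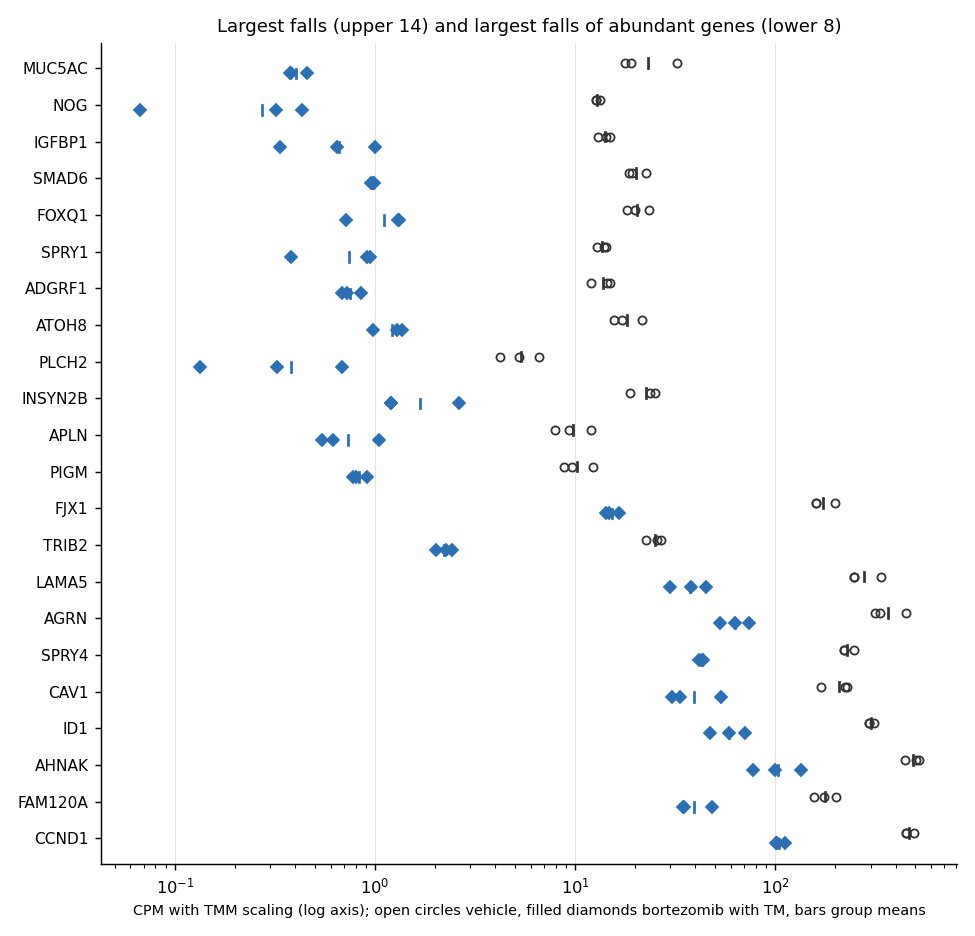
CPM with TMM scaling in each of the 6 libraries, on a log axis, for the 14 largest falls and the 8 largest falls among genes at 100 CPM or more; open circles are vehicle, diamonds bortezomib with TM and bars the group means. The genes were chosen for groups that do not overlap. NOG, IGFBP1, SMAD6, FOXQ1, SPRY1, ATOH8, PLCH2, PIGM, FJX1, TRIB2, LAMA5, AGRN and ID1 have their lowest value in bortezomib-TM library 3.

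Taken by pathway, falls took the largest shares of the breast lineage genes, the YAP and TEAD targets, the chromatin regulators and the matrix glycoproteins among lists with 10 or more genes tested. YAP is a co-activator that carries signals from adhesion and cell shape to TEAD transcription factors. Of 27 tested members of its target list 17 fell, 11 of them at least 2-fold, and 6 rose, with a median log2 change of -0.78 against -0.09 over all genes tested. IGFBP3 measured 54.5, 53.2 and 55.4 CPM under vehicle and 17.1, 17.2 and 17.7 CPM under treatment (log2 -1.65, SE 0.11, adjusted p = 4.49e-07). CAVIN2, a caveolar coat protein, fell from 37.4 ± 9.61 to 5.50 ± 0.593 CPM (log2 -2.76), the larger vehicle spread coming from library 2. GADD45B, a stress and growth arrest gene, went the other way, from 84.3, 94.5 and 78.9 to 436, 450.3 and 382 CPM (log2 2.30, SE 0.11). The list thus held changes in both directions.

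The TGF-beta and SMAD list covers ligands, receptors, SMAD transducers and targets of a pathway that in breast cancer governs growth arrest, matrix output and invasion. Of its 32 tested members 12 fell, 9 at least 2-fold, and 3 rose (median -0.36), and without bortezomib-TM library 3 the falls came to 18 and the median to -0.63. SMAD3, a receptor-activated SMAD, measured 241, 272 and 239 CPM under vehicle and 91.1, 77.7 and 88.5 CPM under treatment (log2 -1.55, SE 0.10, adjusted p = 2.81e-07). SKI, a SMAD co-repressor, fell from 174 ± 21.8 to 72.5 ± 10.7 CPM and ID3, a relative of ID1, from 178 ± 19.3 to 80.0 ± 13.4 CPM. The falls thus included a transducer, a co-repressor and targets. In the Wnt list 14 of 30 fell, 12 at least 2-fold, and 9 rose (median -0.37, but -0.73 without bortezomib-TM library 3; 4 rose without vehicle library 3). FZD2, a Wnt receptor, fell from 72.0, 75.4 and 64.5 to 26.2, 28.9 and 21.9 CPM (log2 -1.46), its co-receptor LRP5 from 218 ± 40.3 to 73.1 ± 9.13 CPM and the ligand WNT7B from 27.1 ± 4.17 to 6.82 ± 1.09 CPM. DKK1, a secreted Wnt antagonist, rose from 110.3 ± 15.7 to 239 ± 9.01 CPM. In the Notch list 7 of 21 fell and 5 rose, shares of 33.3% and 23.8% that lie near those of all genes.

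Receptor tyrosine kinases signal through the ERK and PI3K cascades, and Sprouty proteins and dual-specificity phosphatases are induced by ERK to damp it. Of 31 tested receptors and ligands 15 fell and 10 rose (6 rose without vehicle library 3; median -0.13, and -0.05 without bortezomib-TM library 3). AXL, a receptor abundant in mesenchymal breast cancer lines, fell from 1129.5, 1281 and 1034 to 516, 470.4 and 503 CPM (log2 -1.21, SE 0.10, adjusted p = 1.62e-06), and EGFR, the epidermal growth factor receptor, from 159, 133 and 169 to 44.1, 39.7 and 58.1 CPM (log2 -1.70, SE 0.16). PDGFRB, a receptor for platelet-derived growth factor, rose from 4.46, 5.07 and 3.94 to 14.1, 13.4 and 14.4 CPM. Of the 19 feedback genes 10 fell, 7 at least 2-fold, and 6 rose (median -0.29). Besides SPRY1 and SPRY4, PHLDA1 fell from 326, 304 and 313 to 81.1, 94.8 and 75.6 CPM (log2 -1.91), whereas the phosphatase gene DUSP1 rose from 144, 160.3 and 136 to 582, 605 and 562 CPM (log2 1.99) and DUSP8 from 3.39 ± 0.172 to 40.2 ± 7.74 CPM (log2 3.57). In the PI3K, AKT and mTOR list 14 of 31 fell and 7 rose (median -0.29, and -0.54 without bortezomib-TM library 3). IRS1, the docking protein of the insulin receptor, measured 51.1, 54.8 and 50.8 CPM under vehicle and 7.90, 8.24 and 9.06 CPM under treatment (log2 -2.64, SE 0.14, adjusted p = 5.99e-08). SESN2 and DDIT4, both inhibitors of mTOR and both also ATF4 targets, rose from 10.0 ± 0.823 to 111 ± 15.7 CPM and from 15.1, 15.3 and 11.6 to 134, 144 and 113 CPM.

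**Figure D3:**
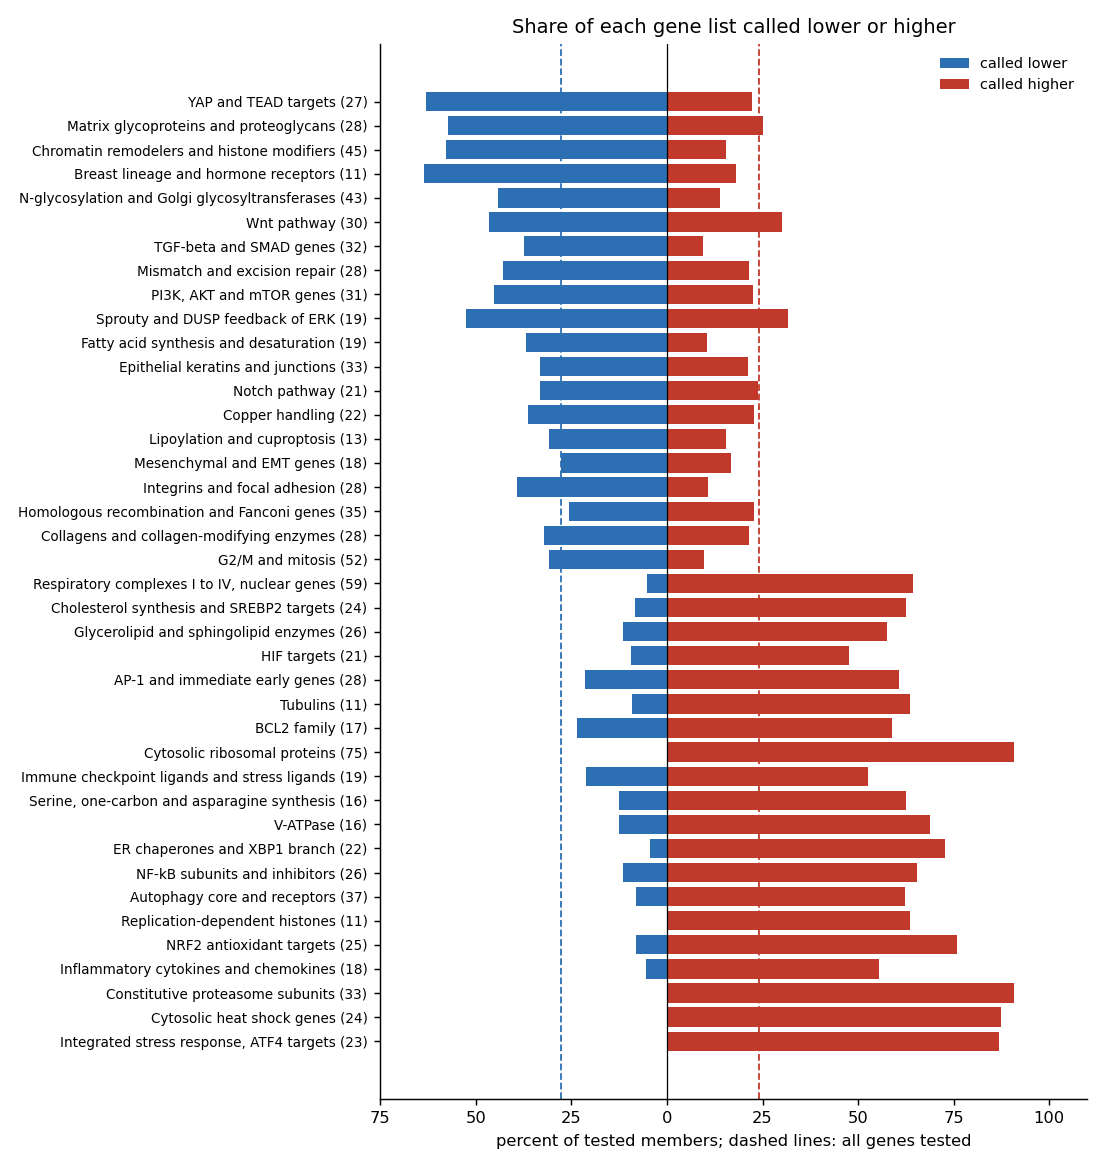
Percent of the tested members of each list called lower (left, blue) or higher (right, red), for the 20 lists with the lowest and the 20 with the highest median among reported lists of at least 10 tested genes; dashed lines give the shares over all genes tested, 27.6% and 24.1%. Blue bars pass 50% for YAP targets, matrix glycoproteins, chromatin regulators, breast lineage genes and ERK feedback, and red bars are longest for ribosomal proteins, proteasome subunits, heat shock genes and ATF4 targets.

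LAMA5 and AGRN belong to the matrix list. Of 28 tested matrix glycoproteins and proteoglycans 16 fell, 10 at least 2-fold, and 7 rose (median -0.73). TNC, the matricellular protein tenascin C, measured 28.8, 34.8 and 24.1 CPM under vehicle and 3.76, 4.43 and 4.80 CPM under treatment (log2 -2.75, SE 0.23, adjusted p = 1.82e-06). LTBP1, which stores latent TGF-beta in the matrix, fell from 22.0 ± 0.912 to 4.23 ± 1.26 CPM. SDC4, a cell surface proteoglycan, was the exception among the named members and rose from 87.8, 93.4 and 83.6 to 284, 263 and 249 CPM (log2 1.59). Of 28 integrin and focal adhesion genes 11 fell, 8 at least 2-fold, 3 rose and 14 were not called (median -0.20, and -0.38 without bortezomib-TM library 3). ITGB4, the beta 4 integrin of hemidesmosomes, which binds laminins, fell from 48.4, 68.1 and 43.2 to 7.47, 5.69 and 5.60 CPM (log2 -3.09, SE 0.21, adjusted p = 4.84e-07). The adaptor TNS3 fell from 107 ± 15.5 to 19.9 ± 2.80 CPM, TLN2, a talin, from 32.8 ± 3.09 to 9.27 ± 0.508 CPM, and VCL, vinculin, from 321 ± 24.3 to 132 ± 15.1 CPM. Among 28 collagens and collagen-modifying enzymes 9 fell and 6 rose, shares of 32.1% and 21.4% near the 27.6% and 24.1% of all genes, with COL13A1 at a log2 change of -1.70 and P4HA2, a collagen prolyl hydroxylase, at 2.22. SERPINH1, the collagen chaperone that is also a heat shock gene, rose from 304 ± 33.9 to 996 ± 78.1 CPM.

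Matrix proteases leaned the opposite way, with 13 of 24 rising and 4 falling (median 0.49). PLAU, the urokinase protease, fell from 215 ± 19.8 to 67.8 ± 4.55 CPM, while MMP14, a membrane-bound metalloprotease, rose from 118 ± 14.3 to 281 ± 30.6 CPM and ADAMTS1 from 5.58 ± 0.311 to 26.7 ± 6.46 CPM. With total-count scaling 7 of these proteases and inhibitors were higher and 8 lower. In the keratin and junction list 11 of 33 fell and 7 rose, shares of 33.3% and 21.2% near those of all genes: KRT80 fell from 143 ± 18.6 to 34.0 ± 1.59 CPM, the desmosomal plakophilin PKP3 from 73.7 ± 10.2 to 28.3 ± 4.29 CPM, and KRT17, near 0.0505 CPM under vehicle, reached 3.72 ± 0.287 CPM. Of 11 breast lineage genes 7 fell and 2 rose (median -0.65), led by SOX9, a progenitor transcription factor, from 66.1, 66.4 and 63.9 to 10.0, 6.79 and 8.79 CPM (log2 -2.94, SE 0.16, adjusted p = 7.89e-08). Of 18 mesenchymal genes 5 fell and 3 rose, shares of 27.8% and 16.7% beside 27.6% and 24.1% of all genes, with SNAI1, a repressor of epithelial genes, up from 9.12 ± 1.59 to 52.6 ± 7.90 CPM. Without bortezomib-TM library 3 the falls in that list came to 8.

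Among chromatin remodelers and histone modifiers 26 of 45 were lower, 14 of them at least 2-fold, and 7 were higher (median -0.67). ARID1A, a subunit of the BAF nucleosome remodeler and a frequently mutated cancer gene, measured 91.7, 100.5 and 91.5 CPM under vehicle and 29.5, 23.0 and 25.3 CPM under treatment (log2 -1.87, SE 0.13, adjusted p = 4.49e-07). NSD2, a histone H3 lysine methyltransferase, fell from 324 ± 9.44 to 157 ± 4.85 CPM (log2 -1.05, SE 0.08). Of the class IIa histone deacetylases, HDAC4 fell from 30.0 ± 0.916 to 8.28 ± 0.873 CPM, and HDAC5 rose from 26.5 ± 5.74 to 107 ± 4.91 CPM. Replication-dependent histone genes, which occur in near-identical copies and whose messages are mostly not polyadenylated, had 7 of 11 members higher and 0 lower in these poly(A) libraries (median 1.00; 5 higher and 2 lower with total-count scaling). H4C3 rose from 0.282 ± 0.111 to 6.42 ± 0.953 CPM and H1-4 from 3.33 ± 0.105 to 19.1 ± 2.07 CPM, values that are uncertain for those reasons.

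Cell cycle genes moved in both directions. Of 50 genes of G1/S and DNA replication 19 rose (38%) and 11 fell (22%), with a median of 0.15, but -0.27 with total-count scaling. Of 52 genes of G2/M and mitosis 5 rose (9.6%) and 16 fell (30.8%), with a median of -0.14, and -0.46 without bortezomib-TM library 3. Over all genes tested 24.1% rose and 27.6% fell, so the share of G2/M falls lay near that of all genes. RRM2, a subunit of ribonucleotide reductase, rose from 508 ± 26.7 to 1402 ± 26.6 CPM, ORC6, of the origin recognition complex, from 49.6 ± 3.85 to 253 ± 39.0 CPM, and MCM7, of the replicative helicase, from 952 ± 113 to 2336 ± 199 CPM, while CCND1 fell as given above. Of the mitotic kinases, AURKA fell from 147, 134 and 145 to 50.5, 49.2 and 65.0 CPM (log2 -1.37, SE 0.13) and PLK1 from 275, 313 and 249.7 to 124, 119 and 92.5 CPM (log2 -1.32, SE 0.14), whereas the spindle checkpoint kinase TTK rose from 13.1 ± 2.18 to 42.7 ± 4.69 CPM. Without bortezomib-TM library 3, 27 of the G2/M genes were lower and 6 higher. Mismatch and excision repair had 12 of 28 lower and 6 higher (median -0.32), with XPC, the damage sensor of nucleotide excision repair, down from 6.45 ± 0.650 to 1.97 ± 0.525 CPM and DDB1 up from 634 ± 79.8 to 1283 ± 155 CPM. That count of falls was 7 without bortezomib-TM library 2. In homologous recombination and Fanconi genes 9 of 35 fell and 8 rose, shares of 25.7% and 22.9% that lie near those of all genes. The falls came to 5 without bortezomib-TM library 2, vehicle library 1 or vehicle library 3, and the rises to 5 without bortezomib-TM library 3, vehicle library 1 or vehicle library 2. FANCG rose from 80.6 ± 10.5 to 207 ± 31.0 CPM and FANCF fell from 5.96 ± 0.421 to 1.17 ± 0.219 CPM.

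**Figure D4:**
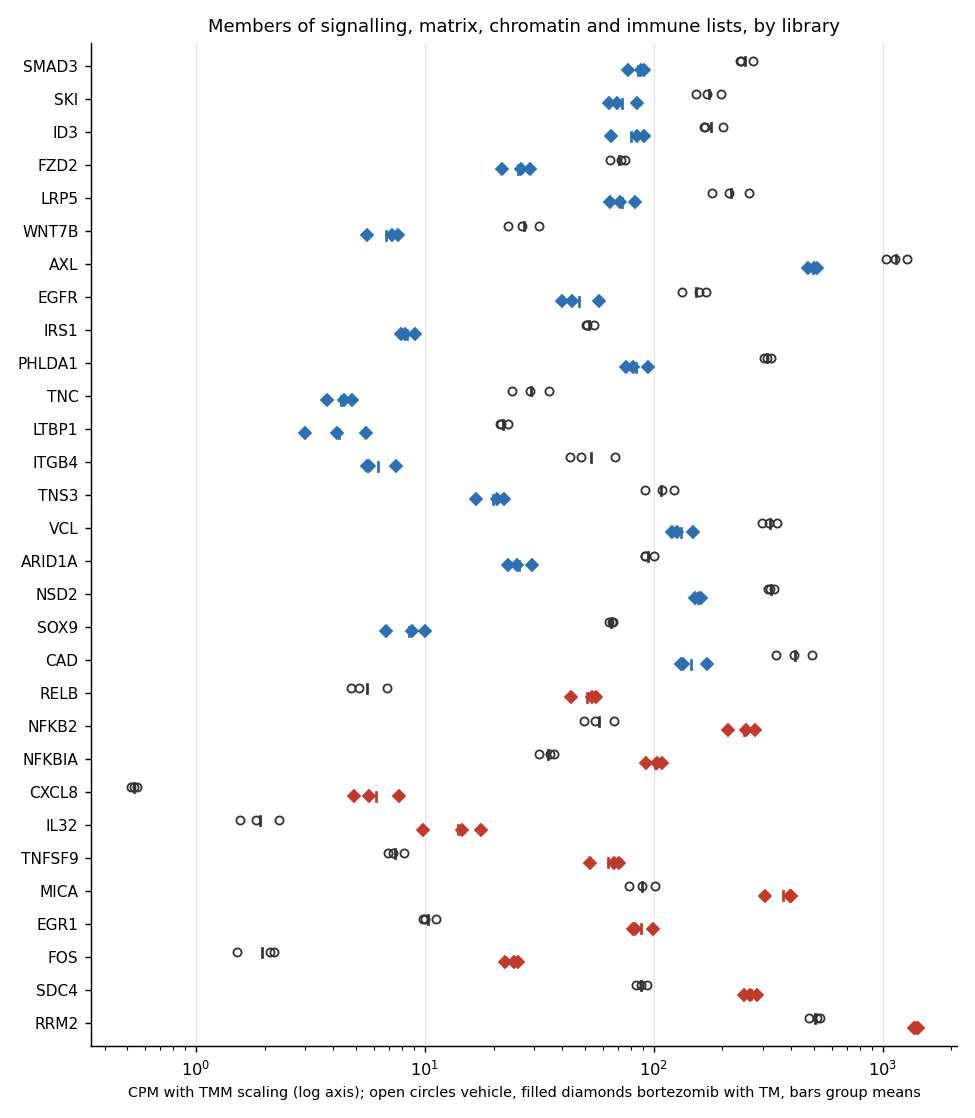
CPM with TMM scaling in each library, on a log axis, for 30 named members of the signalling, matrix, chromatin, metabolic and immune lists; open circles are vehicle and diamonds bortezomib with TM, blue for falls and red for rises. Values run from CXCL8 near 0.536 CPM under vehicle to RRM2 near 1402 CPM under treatment. Within each row the groups do not overlap, as held for 58.4% of all genes tested, and list members were named by smallest p.

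Glycosylation and biosynthetic enzymes held further falls. Of 43 N-glycosylation and Golgi glycosyltransferase genes 19 fell, 8 at least 2-fold, and 6 rose (median -0.51). CHSY1, which polymerises chondroitin sulfate, fell from 52.5, 51.5 and 58.2 to 13.4, 12.7 and 17.8 CPM (log2 -1.88, SE 0.15, adjusted p = 1.37e-06). GALNT10, an initiator of mucin-type O-glycans, fell from 147 ± 8.71 to 49.1 ± 2.07 CPM, and MGAT1, which starts complex N-glycans, rose from 250.4 ± 32.5 to 486 ± 69.6 CPM. In pentose phosphate and nucleotide synthesis 11 of 25 fell and 8 rose (4 rose without bortezomib-TM library 2, vehicle library 1 or vehicle library 3, and 5 without bortezomib-TM library 1). The falls included CAD, which starts pyrimidine synthesis, from 409, 493 and 342 to 172, 134 and 132 CPM (log2 -1.50), and ATIC, of purine synthesis, from 213 ± 6.16 to 118 ± 2.70 CPM. The rises were led by TALDO1, a pentose phosphate enzyme, from 349 ± 31.2 to 924 ± 83.6 CPM, and PRPS1 from 155 ± 3.36 to 344 ± 13.9 CPM.

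The branches of lipid synthesis moved apart. In fatty acid synthesis and desaturation 7 of 19 fell and 2 rose (median -0.28), with small changes in the named members: SCD, the main desaturase, fell from 842, 797 and 823 to 546, 526 and 570.3 CPM (log2 -0.58, SE 0.08) and ACACA, acetyl-CoA carboxylase, from 99.5 ± 3.23 to 55.6 ± 7.19 CPM. In cholesterol synthesis 15 of 24 rose and 2 fell (median 0.51), with NSDHL up from 51.4 ± 5.49 to 147 ± 11.4 CPM and HMGCS1 from 25.1 ± 4.28 to 89.2 ± 30.4 CPM, the 3 treated HMGCS1 values spreading from 61.9 to 122 CPM. With total-count scaling 6 cholesterol genes were higher and 7 lower, and 14 fatty acid genes lower. In glycolysis 15 of 24 rose and 5 fell (median 0.40, but -0.02 with total-count scaling; 3 fell without bortezomib-TM library 3): SLC2A3, a glucose transporter, rose from 26.0 ± 1.90 to 96.8 ± 17.3 CPM and PGK1 from 841 ± 61.8 to 2088 ± 225 CPM, while LDHA, lactate dehydrogenase A, fell from 1578 ± 14.1 to 819.9 ± 83.2 CPM (log2 -0.95).

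The widest rise by number of genes was that of the ribosome. Of 75 cytosolic ribosomal protein genes 68 rose and 0 fell (median 0.73, and 0.30 with total-count scaling, which called 48 higher and 3 lower). Of these 14 rose at least 2-fold, and log2 changes over the list ran from -0.63 to 1.29. RPL32 went from 1483, 1538 and 1436 to 2814, 2913 and 2571 CPM (log2 0.90, SE 0.08, adjusted p = 4.87e-06) and RPL15 from 1977 ± 31.0 to 4224 ± 577 CPM. Many of these genes have processed pseudogenes that can share their reads. Nuclear genes of respiratory complexes I to IV had 38 of 59 higher and 3 lower (median 0.50; 12 higher and 14 lower with total-count scaling), with COX7A2L up from 119.7 ± 7.54 to 242 ± 22.2 CPM and NDUFB11 from 61.0 ± 6.21 to 129.9 ± 9.66 CPM. Of the 13 messages encoded in mitochondrial DNA, 4 fell and 1 rose, shares of 30.8% and 7.69% beside 27.6% and 24.1% of all genes. Their median was -0.04, and 0.05 without bortezomib-TM library 3. With total-count scaling 10 fell and 1 rose (median -0.46), and with a correction for GC content 0 fell. MT-ND4 measured 3739, 4257 and 3661 CPM under vehicle and 3029, 2633 and 2411 CPM under treatment (log2 -0.53, SE 0.13, adjusted p = 0.00483), and MT-ND3 rose from 644 ± 87.2 to 1397 ± 258 CPM. The V-ATPase, the proton pump of lysosomes, had 11 of 16 higher and 2 lower (median 0.84), and ATP6V0B rose from 133 ± 21.8 to 545 ± 97.1 CPM.

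Inflammatory genes rose outside the proteotoxic lists. NF-kB is held in the cytoplasm by inhibitors that the proteasome destroys, and a second branch needs the proteasome to process the p100 product of NFKB2. Of 26 NF-kB subunits and regulators 17 rose, 10 at least 2-fold, and 3 fell (median 0.85; 11 higher and 5 lower with total-count scaling). RELB, a subunit of the second branch (ENSG00000104856, chromosome 19, 45001430 to 45038198), measured 5.19, 6.85 and 4.79 CPM under vehicle and 55.8, 54.0 and 43.6 CPM under treatment (log2 3.19, SE 0.17, adjusted p = 7.62e-08). NFKB2 itself rose from 57.6 ± 9.10 to 248 ± 33.8 CPM, and the inhibitors NFKBIA and NFKBIB from 34.5 ± 2.58 to 102 ± 8.02 CPM and from 45.0 ± 6.70 to 141 ± 7.36 CPM. Of 18 tested cytokine and chemokine genes 10 rose, all 10 at least 2-fold, and 1 fell (median 1.40). TNFSF9, the ligand of the T cell costimulatory receptor 4-1BB, measured 7.31, 8.11 and 6.95 CPM against 70.5, 67.3 and 52.7 CPM (log2 3.09, SE 0.14). CXCL8, a neutrophil chemokine, went from 0.553, 0.520 and 0.536 CPM to 4.90, 5.75 and 7.76 CPM (log2 3.51, SE 0.30), and IL32 from 1.57, 2.32 and 1.84 CPM to 17.6, 14.5 and 9.84 CPM (log2 2.87, SE 0.25). The cytokines thus rose from very low levels, and bortezomib-TM library 3 had the highest CXCL8 and the lowest IL32.

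Promoters are shown for 4 genes of these lists that rose and hold the letters GGANTTTCC, a form of the site bound by NF-kB. They do not describe all holders in these lists, since each of the 4 rose. Both strands were searched from 250 bases before to 50 bases after the RefSeq start (GRCh38.p14), and capitals mark the matches. These letters stand in 1.64% of all 27305 promoters of this length, in 1.94% of those of genes that rose at least 2-fold and in 1.59% of those that fell at least 2-fold. In the NF-kB list 5 of 23 promoters hold them (21.7%), and of those genes 2 rose and 1 fell. In the cytokine list 6 of 12 do (50%), and of those 4 rose and 0 fell. A match is a description of the sequence and not a measured site.
The CXCL8 window is chr4:73740319-73740618 on the plus strand. The CXCL3 window is chr4:74038640-74038939 on the minus strand. The IL32 window is chr16:3065153-3065452 on the plus strand. The NFKBIA window is chr14:35404700-35404999 on the minus strand.
CXCL8: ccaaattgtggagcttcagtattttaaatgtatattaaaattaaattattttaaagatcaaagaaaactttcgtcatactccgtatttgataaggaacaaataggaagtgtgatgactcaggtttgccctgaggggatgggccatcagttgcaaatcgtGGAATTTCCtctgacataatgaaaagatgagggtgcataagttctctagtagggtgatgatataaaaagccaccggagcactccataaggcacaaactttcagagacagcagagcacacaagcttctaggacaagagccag
CXCL3: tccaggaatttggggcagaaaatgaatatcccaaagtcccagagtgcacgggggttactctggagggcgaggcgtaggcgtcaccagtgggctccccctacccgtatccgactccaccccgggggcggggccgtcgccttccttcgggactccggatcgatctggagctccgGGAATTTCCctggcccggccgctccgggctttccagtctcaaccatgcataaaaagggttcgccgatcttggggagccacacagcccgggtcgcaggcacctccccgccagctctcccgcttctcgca
IL32: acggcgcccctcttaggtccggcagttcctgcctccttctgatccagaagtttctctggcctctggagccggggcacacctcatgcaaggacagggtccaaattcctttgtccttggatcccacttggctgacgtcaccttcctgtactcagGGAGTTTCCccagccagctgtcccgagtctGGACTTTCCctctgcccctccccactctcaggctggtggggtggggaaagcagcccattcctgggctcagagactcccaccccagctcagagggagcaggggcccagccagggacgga
NFKBIA: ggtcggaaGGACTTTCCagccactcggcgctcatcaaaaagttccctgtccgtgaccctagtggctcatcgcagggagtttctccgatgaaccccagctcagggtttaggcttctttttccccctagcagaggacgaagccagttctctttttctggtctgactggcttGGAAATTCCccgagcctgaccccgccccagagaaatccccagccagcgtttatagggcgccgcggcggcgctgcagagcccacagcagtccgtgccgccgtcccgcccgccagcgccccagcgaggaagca

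CXCL3, a further neutrophil chemokine, was taken up after its values were seen; it rose from 0.143, 0.353 and 0.211 to 1.37, 1.32 and 1.63 CPM (log2 2.60, SE 0.35, adjusted p = 7.55e-05). CXCL1 and CXCL2, also chosen after seeing their values, hold the same letters at -78 and -77 from the start and did not pass the test. CXCL1 measured 0.214, 0.0557 and 0.345 CPM under vehicle and 0.0456, 0.376 and 0.714 CPM under treatment (log2 0.88, adjusted p = 0.410), and CXCL2 0.357, 0.687 and 0.728 against 0.638, 0.376 and 0.134 CPM (log2 -0.62, adjusted p = 0.423). The groups of CXCL1 and of CXCL2 overlapped, and the 3 chemokine genes are close copies between which reads could be split. Of the other motifs searched, the AP-1 site TGACTCA stood in 5.06% of promoters of genes that rose at least 2-fold, 2.73% of those that fell and 3.05% of all those tested. The TEAD site GGAATG stood in 10.7% of both sets and 10.8% of all, and the SMAD site GGCGCC in 27.8% of the rises, 30.9% of the falls and 31.3% of all.

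Immediate early and AP-1 genes, transcription factors that answer to stress kinases within minutes, had 17 of 28 higher and 6 lower (median 0.70). ATF3, also an ATF4 target, measured 4.14, 4.01 and 3.25 CPM under vehicle and 177, 175 and 148 CPM under treatment (log2 5.45, SE 0.14, adjusted p = 6.14e-10). FOS rose from 1.94 ± 0.373 to 24.2 ± 1.64 CPM, EGR1 from 10.4 ± 0.732 to 88.1 ± 10.2 CPM, and MAFF, a small MAF protein, from 38.0, 46.8 and 35.0 to 482, 463 and 385 CPM. In the BCL2 family 10 of 17 rose and 4 fell (median 0.72). The 4 members named, taken by smallest p, all promote apoptosis: BBC3 rose from 3.97 ± 0.863 to 27.4 ± 4.90 CPM, PMAIP1 from 8.96 ± 1.88 to 39.9 ± 4.62 CPM, BAK1 from 51.9 ± 7.40 to 174 ± 27.5 CPM and BIK from 0.442 ± 0.0768 to 3.18 ± 0.602 CPM. They do not describe the family, since no member that fell is among them and log2 changes ran from -1.11 to 2.84.

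MHC class I molecules display peptides to T cells. In their list 11 of 21 rose, 2 fell and 8 were not called (median 0.47; 7 higher and 7 lower with total-count scaling). HLA-E, a ligand of natural killer cell receptors, rose from 175 ± 21.9 to 459.9 ± 57.0 CPM, though HLA genes share reads, and NLRC5, the transcriptional activator of class I genes, fell from 14.8, 19.4 and 14.9 to 4.10, 5.42 and 5.31 CPM (log2 -1.73, SE 0.20). B2M rose from 142 ± 17.5 to 245 ± 28.4 CPM (log2 0.79, adjusted p = 0.000468), a call that total-count scaling removed (log2 0.36, adjusted p = 0.0636). Of 19 checkpoint and stress ligands 10 rose and 4 fell, with MICA, a ligand of the NKG2D receptor, up from 88.7, 101 and 78.3 to 397, 393 and 308 CPM (log2 2.03, SE 0.13). CD274, which encodes PD-L1, showed no difference that passed the test, at 10.3 ± 1.51 and 11.1 ± 3.41 CPM (log2 0.11, SE 0.22, adjusted p = 0.696). Type I interferon genes had 16 of 40 higher and 5 lower (median 0.37, but -0.06 with total-count scaling and 0.23 without bortezomib-TM library 3), and the falls came to 10 without bortezomib-TM library 3 and to 3 without bortezomib-TM library 1 or 2 or vehicle library 1 or 3. IFI44 rose from 5.36 ± 0.917 to 19.0 ± 3.29 CPM and OAS3 fell from 48.9 ± 3.70 to 23.3 ± 1.93 CPM.

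CXCR4, the receptor that AMD3100 blocks, had 0 counts in the 3 vehicle libraries and 6, 0 and 0 in the treated ones, so it was not tested; 0 counts allow up to 3 in a library. In the copper list 8 of 22 fell and 5 rose (median -0.26). These are shares of 36.4% and 22.7%, beside 27.6% and 24.1% of all genes tested. COX19, a copper chaperone of cytochrome oxidase assembly, rose from 12.4, 13.3 and 13.3 to 70.2, 75.1 and 65.5 CPM and SOD1 from 157 ± 6.95 to 555 ± 15.6 CPM, while LOXL2, a copper-dependent matrix cross-linker, fell from 175 ± 26.7 to 64.1 ± 6.10 CPM and STEAP3, a metalloreductase, from 81.9 ± 9.63 to 36.0 ± 1.83 CPM. SLC31A1, the main copper importer, measured 41.6, 41.2 and 45.6 CPM under vehicle and 78.9, 79.5 and 77.2 CPM under treatment (log2 0.88, SE 0.09, adjusted p = 1.24e-05). MT2A, a metallothionein that binds zinc and copper, stood at 617 ± 48.1 and 593 ± 121 CPM (log2 -0.06, adjusted p = 0.745; -0.49 with total-count scaling, adjusted p = 0.00422), and MT1E fell from 134 ± 3.45 to 35.7 ± 2.06 CPM.

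The proteotoxic lists held large shares of rises. Constitutive proteasome subunits had 30 of 33 higher and 0 lower (median 1.43), cytosolic heat shock genes 21 of 24 and 0 (median 1.49), and ATF4 targets 20 of 23 and 0 (median 1.87). NRF2 antioxidant targets had 19 of 25 higher and 2 lower (median 1.00), and autophagy genes 23 of 37 higher and 3 lower (median 0.86; 6 lower without bortezomib-TM library 3). PSMB5, the subunit that bortezomib binds, measured 267, 293 and 249 CPM under vehicle and 734, 706 and 556 CPM under treatment (log2 1.30, SE 0.11, adjusted p = 2.76e-06). The largest rises joined heat shock genes to others: AKR1B10, an aldo-keto reductase, rose to 15.8 ± 2.22 CPM from 0.148 ± 0.0998, GABARAPL1, an ATG8 protein of autophagosomes, to 397 ± 16.6 from 4.30 ± 0.331 CPM, and HKDC1, a hexokinase-related protein, to 18.6 ± 1.39 from 0.234 ± 0.0206 CPM. GCNT3, a mucin glycosyltransferase, and GADD45G had log2 changes of 6.36 and 6.03. HSPA6 (log2 6.63), HSPA1A (log2 6.21) and HSPA1B (log2 5.84) completed the list, the last pair being near-identical copies between which reads could be split. At 100 CPM or more FAM241B followed, from 17.3 ± 2.07 to 355 ± 55.1 CPM. HMOX1, heme oxygenase 1, rose from 12.8 ± 0.403 to 63.9 ± 9.95 CPM.

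Falls also followed the structure of genes, described here with no test over 8941 protein-coding genes averaging 5 CPM or more, of which 32.8% were higher and 29.6% lower. Of the 118 genes whose transcripts all have 1 exon, 63.6% were lower and 16.1% higher (median -0.62), and of the 220 with 2 exons at most per transcript 49.5% were lower. Genes with 4 to 6 exons leaned the other way, 43.6% higher and 22.0% lower, and those with 25 or more exons fell again, 45.2% lower and 9.89% higher (median -0.41). NOG, FOXQ1, PIGM, FZD2 and FANCF are genes of 1 exon, as is HEXIM1, an inhibitor of the elongation factor P-TEFb chosen after its values were seen, which fell from 7.59 ± 1.29 to 1.79 ± 0.390 CPM (log2 -2.08). HSPA6 (log2 6.63) and HSPA1B (log2 5.84), among the largest rises, are also genes of 1 exon. By span on the chromosome, 41.6% of the longest quintile (90359 bases or more) were lower and 15.9% higher, against 27.6% and 42.1% of the shortest quintile. For falls that contrast lay among genes of high level (32.7% of the longest lower against 17.6% of the shortest), while at middle level the shares lower were 41.0% and 38.7% and at low level 43.2% and 49.3%. For rises it held at each level, with 36.8% of the longest higher against 54.1% of the shortest at high level. The shares higher were 19.4% and 27.7% at middle level and 11.1% and 19.0% at low level. By level per length, 58.3% of the highest quintile were higher and 14.1% lower, and when quintiles were set on the vehicle libraries alone these shares were 48.9% and 21.2%. Within low, middle and high classes of level, genes with 1 or 2 exons were lower in 62.7%, 59.3% and 43.9% of cases, and genes with 4 to 14 exons in 34.1%, 27.3% and 14.8%. With a correction for GC content 59.3% of 1-exon genes were lower, and without bortezomib-TM library 3 the share was 63.6%. Exon counts are the most in any GENCODE 29 transcript of the gene.

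**Figure D5:**
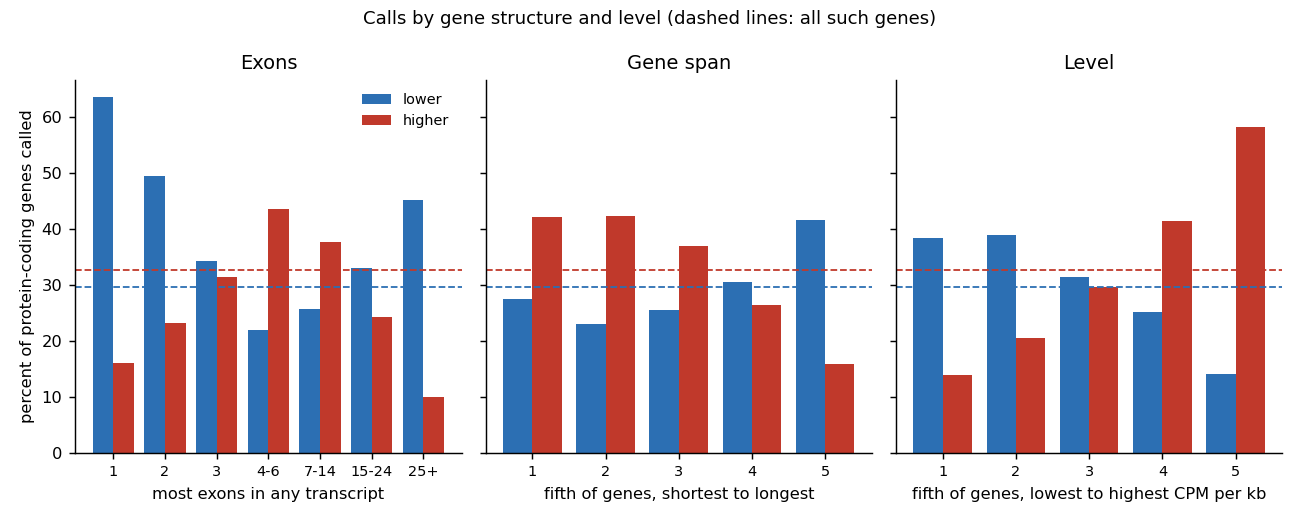
Percent of protein-coding genes at 5 CPM or more called lower (blue) or higher (red), by exon number, by quintile of gene span and of CPM per kilobase over the 6 libraries; dashed lines give the shares over all 8941 genes. Falls exceed rises at both ends of the exon scale, among 1-exon genes (63.6% against 16.1%) and at 25 or more exons (45.2% against 9.89%).

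The other treated MDA-MB-231 arm, 10 nM bortezomib with 10 µM AMD3100, was set beside these values. It shares the vehicle libraries, so the 2 contrasts against vehicle are not independent. MUC5AC averaged 0.313 CPM in that arm and 0.404 under bortezomib with TM, SMAD6 0.937 and 0.977, ID1 52.4 and 59.1, LAMA5 56.0 and 37.7, SPRY4 57.4 and 42.8, and RELB 48.8 and 51.1 CPM. Tested directly, the arms differed in 0 of 16498 genes in edgeR (0%), with 1464 genes at an unadjusted p under 0.05, 0 genes in limma-voom and 70 in DESeq2, and in 183 genes in edgeR without bortezomib-TM library 3. AHNAK, at 167 CPM against 104, had an arm difference of 0.69 on the log2 scale (adjusted p = 0.357), and EGFR, at 75.7 against 47.3 CPM, one of 0.68. A p that misses the threshold does not show that the partners act alike.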

How the data were processed

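Poly(A) RNA was sequenced as paired 150-base reads, per the labels' descriptions. The authors deposited gene-level read counts, counted with featureCounts 2.0.1 on GRCh38 and summarised with MultiQC 1.11, per the submitters' processing notes; no source used here gives the aligner or the annotation. Gene lengths came as a deposited column of another unit (bases). Features without a symbol held 0.0857% of counts. Of counts from 1 to 20, 57.8% to 62.8% were even; how mates were counted is not given, and if both mates count, reads overstate fragments.

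The 9 MDA-MB-231 libraries (40389469 to 50283398 counts) were fitted in edgeR 4.0.16 (R 4.3.3), with 1 coefficient per group, filterByExpr, TMM scaling and quasi-likelihood F tests, adjusted by Benjamini-Hochberg over all tested genes. Standard errors were taken from the log2 change and its F statistic (size over root F); the common biological coefficient of variation was 0.204. Methods were tested on simulated data. Members and the 73 gene lists were chosen with earlier results of these data known. Of 2024 distinct list members 2019 were found. The results of 1 list are not reported here. Named genes are the 14 largest falls and 8 largest rises at 5 CPM or more without overlap. By the same rule 8 falls and 4 rises were taken at 100 CPM. To these were added 2 to 4 called members of smallest p per list, plus MT2A, SLC31A1, HSPA1A, HMOX1, CD274, B2M, CXCR4 and PSMB5. Numbered loci and pseudogenes were passed over. Symbols came from an Ensembl identifier table, which named 61481 of 78932 features, and positions from GENCODE 29. Alternatives used median-of-ratios or total-count scaling, no filter, a replicate block, the compared groups alone, DESeq2 1.42.0, limma-voom (limma 3.58.1), each library left out, an adjusted p under 0.01, a 2-fold change and a GC correction in 20 bins; total-count scaling and the GC correction were added after the data were seen.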

Additional observations from a re-analysis of the deposited data

How the results depend on the processing

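The 8527 calls became 8453 with median-of-ratios scaling, 8715 with DESeq2, 8800 with limma-voom and 9805 with the GC correction, of which only limma-voom kept more falls than rises. Leaving out each library in turn gave 7238 to 8741 (higher 3420 to 3935, lower 3818 to 4806). Total-count scaling gave 2195 higher and 7146 lower. The 2-fold threshold left 4650, 1906 higher and 2744 lower. The 0 calls between treated arms became 70 in DESeq2, 81 with the GC correction and 177 without the filter, and ranged from 0 to 183 with each library left out. The labels do not say whether replicate numbers pair the samples. Same-numbered deviations from the group means correlated at -0.13, 0.12 and 0.29. Bortezomib-TM libraries 2 and 3 correlated best with the vehicle library of the same number, and library 1 with vehicle library 2. These deviations also tracked GC content, so they do not settle whether the numbers mark pairs. With a replicate block 7725 genes were called. Of 294 named genes tested, 288 were called, and 12 lost or reversed their call under at least 1 alternative. ATP5MF reversed (-0.077) with total-count scaling. The medians of 19 of 70 lists changed sign with total-count scaling, 6 of them with a median of at least 0.25 in size. Depth limits the lowest values: fold changes from levels under 1 CPM carry counting error beside the spread of replicates.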

Other observations

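Gene families grouped by symbol prefix, with at least 20 protein-coding genes tested, gave a further description chosen after the data were seen. The grouping used letters alone, so a group can hold genes outside the family it is named for. Myosins (MYO) had 7 of 20 lower and 1 higher, and the palmitoyltransferases (ZDHHC) 10 of 20 lower and 2 higher. Solute carriers (SLC) had 76 of 229 lower and 54 higher, and zinc finger genes (ZNF) 107 of 385 lower and 84 higher, both close to the shares of all genes. The Rab GTPases of vesicle transport (RAB) leaned to rises, 26 of 57 higher and 7 lower (median 0.39), as did the Mediator subunits (MED), 14 of 30 higher and 5 lower, and the ubiquitin-conjugating enzymes (UBE), 20 of 38 higher and 7 lower.

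Of 12581 protein-coding genes tested 29.1% were lower and 27.2% higher. Of 697 long intergenic RNAs 32.0% were lower (median -0.57) and 8.18% were higher at least 2-fold, against 11.8% of protein-coding genes, and of 887 antisense RNAs 25.8% were lower and 8.12% higher (median -0.54); reads of antisense genes cannot be told apart from those of their partners without strand. Of 654 processed pseudogenes 27.4% were higher and 4.89% lower (median 0.42).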
